A study of Mus musculus with 6 samples.

Results

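The coactivator genes *Yap1* and *Wwtr1*, the 4 TEAD genes *Tead1* to *Tead4*, and the CCN genes *Ccn1*, *Ccn2*, *Ccn3* and *Ccn5* were followed in coronary endothelial cells (ECs) with and without *Wt1*. These 10 genes were taken by symbol from a table of 55416 genes. YAP1 and its paralogue TAZ, encoded by *Wwtr1*, do not bind DNA themselves but are carried to promoters and enhancers by TEAD transcription factors, and the Hippo kinases MST1/2 and LATS1/2 hold both in the cytoplasm by phosphorylation. The CCN proteins are secreted, cysteine-rich matricellular proteins that signal mostly through integrins, and *Ccn1* (Cyr61) and *Ccn2* (Ctgf) are the classic TEAD targets, which serum and stretch also induce rapidly. In blood vessels, YAP and TAZ are known for roles in sprouting and junction remodelling, and CCN1 for angiogenesis.

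The cells came from ventricles of E15.5 mouse hearts and were sorted by FACS for membrane GFP (mGFP). ControlΔEC embryos were Pdgfb(CreERT2/+); Wt1(+/+); R26(mTmG/+), and Wt1KOΔEC embryos were Pdgfb(CreERT2/+); Wt1(loxP/loxP); R26(mTmG/+). Both genotypes carried the tamoxifen-inducible Cre, driven by the endothelial *Pdgfb* promoter, and the R26 reporter. All dams received tamoxifen at 75 mg/kg by oral gavage from E11.5 to E13.5. The Cre turns the reporter to mGFP, so the sort reports recombination of the reporter and not of *Wt1*, and the controls have no floxed *Wt1* allele. There were 3 libraries per genotype, labelled as biological replicates, with 26037324 to 44779020 counts each, so that 3 counts correspond to 0.0608 to 0.119 CPM, the count scaled by the size of its library. The labels do not say how many hearts made a library, nor do they name a batch. Library identifiers begin with AT in ControlΔEC and with AU in Wt1KOΔEC, and what these letters stand for is not said. A batch that followed the genotype cannot be told apart from it.

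*Wt1* itself fell from 145, 109.6 and 149 CPM in the ControlΔEC libraries to 14.0, 18.4 and 21.3 CPM in the Wt1KOΔEC libraries (log2 fold change -2.91, SE 0.22, edgeR adjusted p = 0.00319). The endothelial markers *Pecam1*, *Kdr* and *Esam* had the highest means in ControlΔEC, and the summed level of all 10 endothelial markers ranged from 5977 to 7455 CPM in ControlΔEC and from 6092 to 6983 CPM in Wt1KOΔEC. CPM values were normalized by the trimmed mean of M values (TMM). A gene was called a differentially expressed gene (DEG) at a Benjamini-Hochberg adjusted p under 0.05 and an absolute log2 fold change over 0.58 in edgeR's quasi-likelihood test, fitted on the 16296 genes that reached 10 counts in 2 or more libraries.

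All 10 genes entered the test and 0 were DEGs, beside 12 DEGs (0.0736%) among all genes tested. At an unadjusted p under 0.05 there were 3 of the 10, with *Tead2* and *Ccn2* higher and *Ccn3* lower in Wt1KOΔEC, where all genes gave 13.1%. Every library of one genotype lay above every library of the other in 4 of the 10, against 19.3% of all genes. *Tead2* and *Ccn2* did so on the higher side, against 10.3% of all genes, and *Ccn3* and *Tead4* on the lower side, against 8.97%. With DESeq2 in place of edgeR, *Ccn2* and *Ccn3* were DEGs, beside 3.85% of the genes given an adjusted p. The median log2 fold change of the 10 was -0.11, and that of all genes tested was -0.03. In 7 of the 10 the 95% interval of the log2 fold change included 0.

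**Figure D1:**
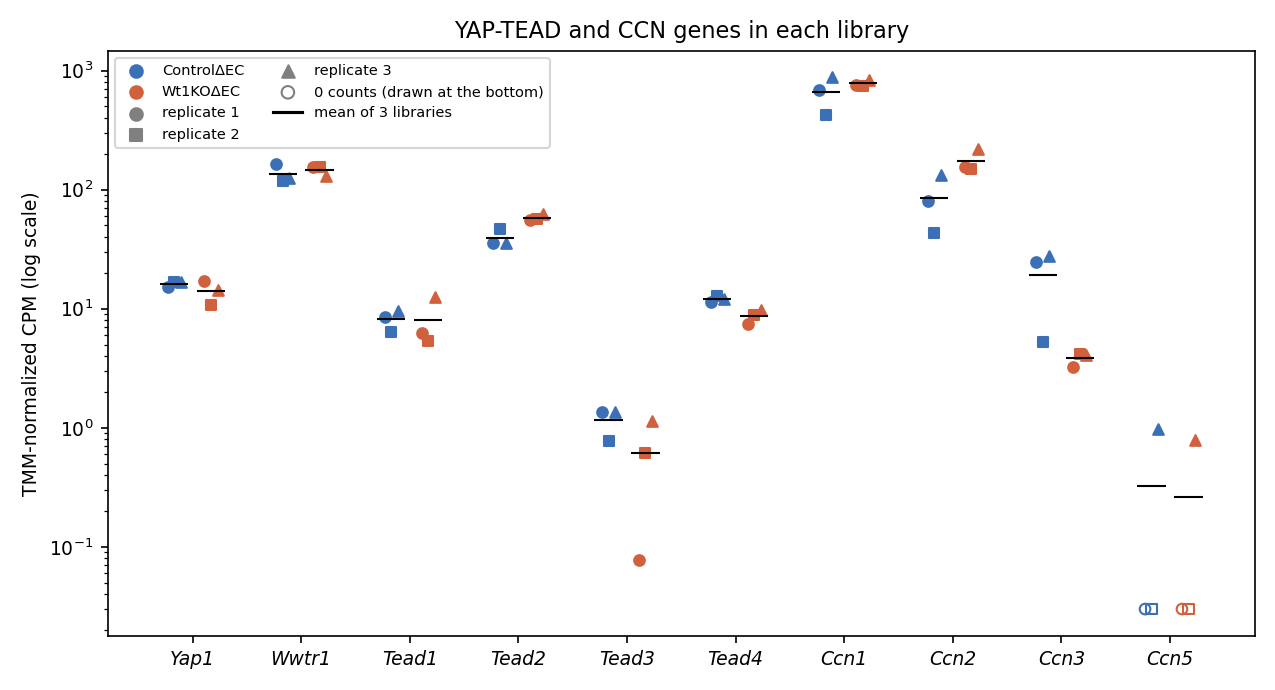
TMM-normalized CPM on a log axis for each gene in each library, with ControlΔEC in blue, Wt1KOΔEC in orange, one marker shape per replicate number, a black line at each mean and open symbols for libraries without a count. *Ccn1* lies above all other genes in every library, *Ccn3* spans 5.25 to 27.6 CPM in ControlΔEC and 3.22 to 4.16 CPM in Wt1KOΔEC, and *Ccn5* has counts in 1 library of each genotype.

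To compare levels between the genes, CPM were divided by exonic length. In ControlΔEC the order of the mean level was *Ccn1* (325 ± 112 CPM per kb, SD, n = 3), *Ccn2* (26.8 ± 14.1), *Wwtr1* (11.54 ± 2.12), *Tead2* (7.20 ± 1.20), *Ccn3* (3.38 ± 2.14), *Tead4* (1.99 ± 0.121), *Yap1* (1.73 ± 0.0809), *Tead1* (0.599 ± 0.118), *Tead3* (0.173 ± 0.0505) and *Ccn5* (0.150 ± 0.259). The neighbours *Ccn2* and *Wwtr1*, *Ccn3* and *Tead4*, and *Tead3* and *Ccn5* had overlapping libraries, and the other neighbours were separate. In Wt1KOΔEC the first 4 genes stood in the same order, with *Ccn1* at 384 ± 21.9 and *Ccn2* at 54.8 ± 12.7 CPM per kb. There, *Ccn3* stood in position 7, behind *Yap1* and *Tead4* and with libraries that overlapped those of *Tead1*. *Ccn1* ranked 60 among all genes per kb in ControlΔEC and 56 in Wt1KOΔEC, while *Ccn2* ranked 995 and 514.

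RefSeq promoters were at hand for *Ccn1*, *Yap1*, *Wwtr1*, *Tead2* and *Tead3*, and those of *Tead1*, *Tead4*, *Ccn2*, *Ccn3* and *Ccn5* were not analysed here. Windows of 250 bases before to 50 after the start were searched on both strands for the TEAD core GGAATG, for the WT1 letters GTGGGAG and for the CArG box of the serum response factor. The TEAD letters were found in 4 of the 5 genes (*Ccn1*, *Yap1*, *Wwtr1* and *Tead3*), against 16.6% of all 27025 genes with a promoter. The WT1 letters were found in *Tead2* and *Wwtr1*, against 11.0% of genes, and the CArG box in 0 of the 5, against 1.81%. *Tead3* has several annotated starts, and every window of a gene was searched. A match is only a match of letters and says nothing of binding in these cells. The 250 bases before the start, 5′ to 3′ on the gene's strand, are printed for *Ccn1*, the gene with the highest level, for *Yap1*, and for *Tead2*, the TEAD gene whose libraries were all higher in Wt1KOΔEC. They lie on GRCm38.p6 at chr3:145649986-145650235 (minus strand), chr9:8004597-8004846 (minus strand) and chr7:45215542-45215791 (plus strand), and the capitals mark the TEAD letters or their complement in *Ccn1* and *Yap1* and the complement of the WT1 letters in *Tead2*:
Ccn1: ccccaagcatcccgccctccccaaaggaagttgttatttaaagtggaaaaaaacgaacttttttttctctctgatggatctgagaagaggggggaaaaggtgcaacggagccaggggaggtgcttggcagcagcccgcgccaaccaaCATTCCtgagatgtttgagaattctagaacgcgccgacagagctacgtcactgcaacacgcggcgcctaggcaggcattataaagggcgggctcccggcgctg
Yap1: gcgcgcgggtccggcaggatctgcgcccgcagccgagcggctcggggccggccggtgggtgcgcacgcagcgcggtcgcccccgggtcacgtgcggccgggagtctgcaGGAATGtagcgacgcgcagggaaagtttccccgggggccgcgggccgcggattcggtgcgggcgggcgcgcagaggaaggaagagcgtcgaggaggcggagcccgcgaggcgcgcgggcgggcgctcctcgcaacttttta
Tead2: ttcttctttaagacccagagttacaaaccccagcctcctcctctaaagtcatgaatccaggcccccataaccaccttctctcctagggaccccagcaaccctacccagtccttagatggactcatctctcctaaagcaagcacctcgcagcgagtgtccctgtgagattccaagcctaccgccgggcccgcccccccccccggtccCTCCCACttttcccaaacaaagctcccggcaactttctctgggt
The TEAD letters lie 103 to 98 bases before the start of *Ccn1* and 141 to 136 bases before that of *Yap1*, and the WT1 letters 44 to 38 bases before that of *Tead2*.

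The coactivators were not told apart between the genotypes. *Yap1* (ENSMUSG00000053110.14, GRCm39 chr9:7932000-8004661) stood at 15.4, 16.7 and 16.6 CPM in ControlΔEC replicates 1 to 3 and at 17.2, 10.8 and 14.4 CPM in Wt1KOΔEC. The highest and the lowest value both belonged to Wt1KOΔEC, and the log2 fold change of -0.20 (SE 0.27, 95% interval -0.80 to 0.40) had an edgeR adjusted p of 0.843. *Wwtr1*, which encodes TAZ, stood at 165, 119 and 125 CPM against 155, 155 and 129 CPM, so that the genotypes overlapped (log2 fold change 0.10, SE 0.18, 95% interval -0.30 to 0.50, edgeR adjusted p = 0.891). Per kb of exon, *Wwtr1* exceeded *Yap1* in every library. The ratio was 8.53, 5.66 and 5.96 in ControlΔEC (6.72 ± 1.58, SD, n = 3) and 7.14, 11.4 and 7.13 in Wt1KOΔEC (8.55 ± 2.44), with an exact two-sided permutation p of 0.4. The smallest p that 3 against 3 libraries allow is 0.1.

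Among the TEAD factors, which bring YAP and TAZ to DNA, *Tead2* (ENSMUSG00000030796.18, GRCm39 chr7:44865172-44883071) was the most abundant in all 6 libraries and was higher in Wt1KOΔEC. It stood at 35.3, 46.9 and 35.8 CPM in ControlΔEC and at 55.4, 57.1 and 62.2 CPM in Wt1KOΔEC. Every Wt1KOΔEC library was above every ControlΔEC library, and the level was 1.48-fold (95% interval 1.11 to 1.97) that of ControlΔEC, with a log2 fold change of 0.57 (SE 0.18). The adjusted p was 0.261 in edgeR, 0.111 in DESeq2 and 0.257 in limma-voom, so that *Tead2* was no DEG with any of them. In bulk libraries, fewer cells of one type and less RNA per cell cannot be told apart.

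*Tead4* lay on the other side. Its 11.4, 12.8 and 12.0 CPM in ControlΔEC were all above the 7.42, 8.79 and 9.77 CPM of Wt1KOΔEC, with a log2 fold change of -0.48 (SE 0.29, 95% interval -1.13 to 0.18, edgeR adjusted p = 0.554). The interval includes 0, and the lack of overlap did not come with a low p. *Tead1*, the TEAD factor best known from cardiac muscle, stood at 8.45, 6.39 and 9.54 CPM against 6.22, 5.34 and 12.5 CPM (log2 fold change -0.02, SE 0.42, 95% interval -0.98 to 0.93). Its direction turned with the normalization and with the library left out. *Tead3* had few counts, 61, 38 and 39 counts in ControlΔEC and 3, 22 and 29 counts in Wt1KOΔEC. These are 1.36, 0.770 and 1.35 CPM against 0.0768, 0.618 and 1.15 CPM, and the difference was within the spread between libraries (log2 fold change -0.92, SE 1.25, 95% interval -3.74 to 1.89).

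Per kb of exon, the 4 TEAD genes summed to 9.96 ± 1.15 CPM per kb in ControlΔEC and to 12.8 ± 1.17 in Wt1KOΔEC (SD, n = 3 each). *Tead2* made up 70.5, 76.1 and 69.5% of that sum in ControlΔEC and 85.7, 84.4 and 80.8% in Wt1KOΔEC. The share of *Tead4* was 20.5, 18.7 and 20.9% in ControlΔEC and 10.3, 11.7 and 11.4% in Wt1KOΔEC. Neither share overlapped between the genotypes. These shares of one sum are not independent of each other, were chosen with the levels in view and are given without a test. *Tead1* held 6.14 ± 1.73% and 4.52 ± 1.77%, and *Tead3* 1.79 ± 0.670% and 0.684 ± 0.561%.

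**Figure D2:**
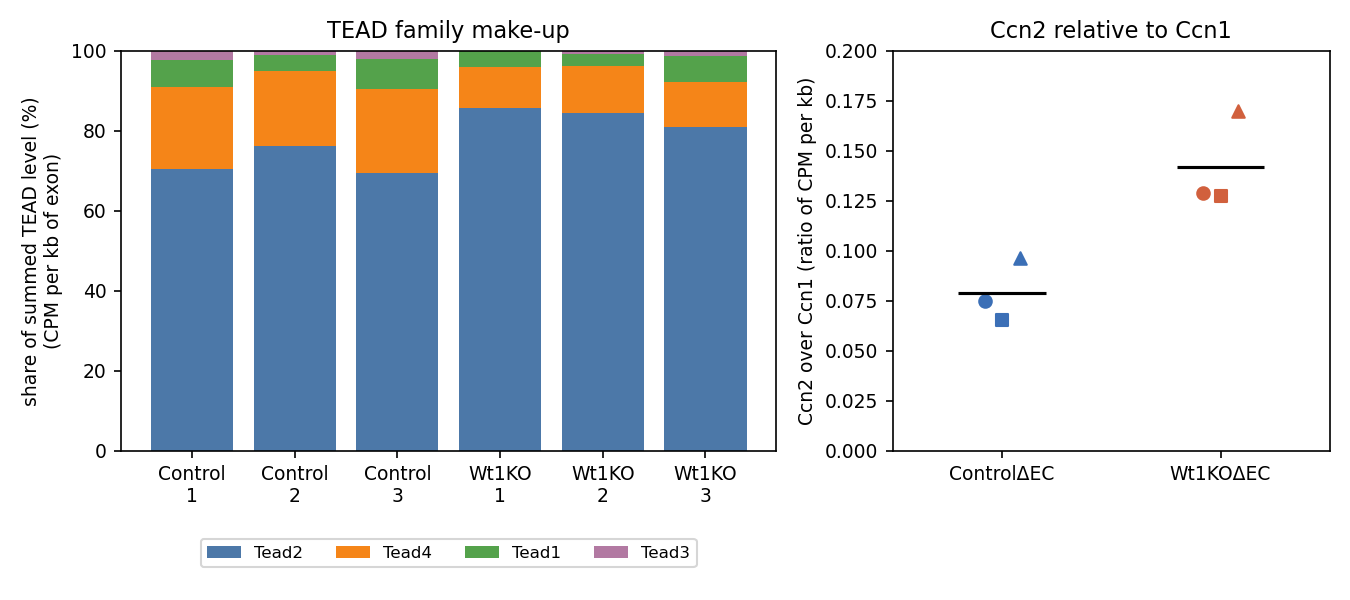
Left, stacked bars with the percentage of the summed TEAD level (CPM per kb of exon) held by each TEAD gene in each library. Right, *Ccn2* divided by *Ccn1* (ratio of CPM per kb) in each library, one marker shape per replicate number, with a line at each mean. *Tead2* takes 69.5 to 76.1% of the bar in ControlΔEC and 80.8 to 85.7% in Wt1KOΔEC, and the ratio is 0.0653 to 0.0964 in ControlΔEC and 0.127 to 0.170 in Wt1KOΔEC.

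*Ccn2*, whose protein binds integrins, LRP receptors and matrix growth factors, was higher in Wt1KOΔEC. *Ccn2* (ENSMUSG00000019997.12, GRCm39 chr10:24471333-24474900) stood at 80.2, 43.4 and 133 CPM in ControlΔEC and at 154, 149 and 221 CPM in Wt1KOΔEC. All Wt1KOΔEC libraries were above all ControlΔEC libraries, although ControlΔEC replicate 3 came close to the lowest of them. The level was 2.05-fold (95% interval 1.17 to 3.58) that of ControlΔEC, with a log2 fold change of 1.03 (SE 0.36). The adjusted p was 0.278 in edgeR, 0.0458 in DESeq2 and 0.206 in limma-voom. The edgeR log2 fold change was 0.72 without ControlΔEC replicate 2 and 1.50 without ControlΔEC replicate 3.

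*Ccn1*, with 20905 to 30531 counts a library, did not separate the genotypes. Its levels were 682, 424 and 878 CPM in ControlΔEC and 762, 746 and 830.2 CPM in Wt1KOΔEC, with the lowest and the highest value both in ControlΔEC. The spread was 661 ± 228 CPM in ControlΔEC and 779.6 ± 44.6 CPM in Wt1KOΔEC (SD, n = 3), with a log2 fold change of 0.24 (SE 0.24, 95% interval -0.30 to 0.78, edgeR adjusted p = 0.766). *Ccn2* relative to *Ccn1*, per kb, was 0.0750, 0.0653 and 0.0964 in ControlΔEC and 0.129, 0.127 and 0.170 in Wt1KOΔEC. This ratio was formed after the levels had been seen and is given as a description.

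*Ccn3* (Nov), whose protein was named for its overexpression in nephroblastoma, had the largest estimated difference of the 10 genes. *Ccn3* (ENSMUSG00000037362.9, GRCm39 chr15:54609012-54620154) stood at 24.7, 5.25 and 27.6 CPM in ControlΔEC and at 3.22, 4.16 and 4.08 CPM in Wt1KOΔEC. The counts behind these values were 1103, 259 and 795 against 126, 148 and 103, well over the limit of detection. No library overlapped, but ControlΔEC replicate 2 lay close to the Wt1KOΔEC libraries and far under the other ControlΔEC libraries. The level in Wt1KOΔEC was 0.200-fold (95% interval 0.0831 to 0.479) that of ControlΔEC, with a log2 fold change of -2.33 (SE 0.56). The adjusted p was 0.180 in edgeR, 0.00338 in DESeq2 and 0.368 in limma-voom. Without ControlΔEC replicate 2 the edgeR log2 fold change was -2.77 with an adjusted p of 0.0157, which made *Ccn3* a DEG.

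*Ccn5*, the CCN gene whose protein lacks the C-terminal domain, had 28 counts in ControlΔEC replicate 3 and 20 counts in Wt1KOΔEC replicate 3, and 0 in the other 4 libraries. A count of 0 allows up to 0.0608 to 0.0843 CPM in those libraries. The fitted log2 fold change, -0.29 (SE 2.61, edgeR adjusted p = 0.983), rests on 1 library of each genotype and is not read as a difference. The other CCN genes were read beside them. *Ccn4* (Wisp1), known from Wnt signalling, stood at 8.90, 9.53 and 7.94 CPM in ControlΔEC and at 13.8, 18.4 and 23.6 CPM in Wt1KOΔEC. Its libraries did not overlap (log2 fold change 1.08, SE 0.29), and the adjusted p was 0.209 in edgeR and 0.0451 in DESeq2. *Ccn6* had 2 counts in 1 library and was not tested.

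**Figure D3:**
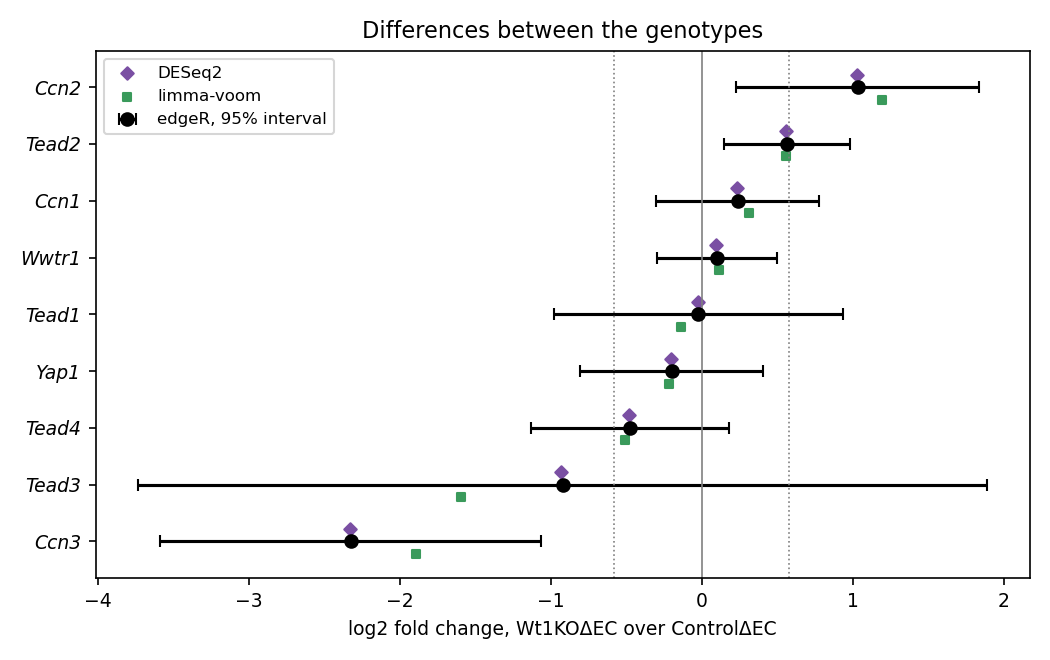
Log2 fold change of Wt1KOΔEC over ControlΔEC for each gene but *Ccn5*, with the edgeR estimate and its 95% interval in black, DESeq2 as purple diamonds and limma-voom as green squares. Dotted lines mark ±0.58. The intervals of *Ccn3*, *Tead2* and *Ccn2* do not include 0, and *Tead3* has the widest interval, from -3.74 to 1.89.

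The Hippo kinases and their inputs act upstream of YAP and TAZ. Of 24 kinase cassette and upstream genes, all tested, 6 had an unadjusted p under 0.05, all lower in Wt1KOΔEC, against 7.12% of all genes on that side, and 0 were DEGs in edgeR. *Map4k3*, a MAP4K kinase that can act on LATS, stood at 71.7, 65.6 and 75.7 CPM in ControlΔEC and at 24.7, 34.0 and 31.1 CPM in Wt1KOΔEC. The libraries were far apart (log2 fold change -1.24, SE 0.19), with an adjusted p of 0.0779 in edgeR and 1.82e-06 in DESeq2. *Fat4*, an atypical cadherin, stood at 125 ± 23.8 against 78.7 ± 5.74 CPM (SD, n = 3), with an adjusted p of 0.209 in edgeR and 0.0196 in DESeq2. *Lats2*, a kinase that phosphorylates YAP and is itself a YAP target, stood at 124 ± 18.8 against 84.6 ± 7.26 CPM, with a log2 fold change of -0.55 (SE 0.17) inside the fold limit and an edgeR adjusted p of 0.235. *Wwc2*, a KIBRA-family scaffold (log2 fold change -0.89), *Taok2*, a kinase of MST1/2 (-0.63), and *Map4k4* (-0.42) had edgeR adjusted p of 0.247, 0.297 and 0.359. Over the whole list, all Wt1KOΔEC libraries were below all ControlΔEC libraries in 8 of 24 genes, against 8.97% of all genes. These 8 include the 6 genes above, which were picked by their p. The core kinases *Stk3* (MST2) and *Lats1* stood at 34.7 ± 1.84 against 34.8 ± 7.90 CPM and at 12.8 ± 1.79 against 12.0 ± 1.06 CPM. The list's median log2 fold change was -0.21.

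The cofactors and cytoplasmic anchors of YAP and TEAD (VGLL, angiomotin, LIM and 14-3-3 proteins) gave 0 of 18 tested genes at an unadjusted p under 0.05, where all genes gave 13.1%, with a median log2 fold change of -0.01. *Vgll1* and *Vgll2* were not tested.

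The known YAP-TEAD target genes other than the CCN genes went both ways. Of 19 tested, 4 were higher and 3 lower at an unadjusted p under 0.05, where all genes gave 5.96% and 7.12%, and the median log2 fold change was -0.07. The higher ones were *Ccdc80*, *F3*, *Igfbp3* and *Nuak2*, and each of them was a DEG in DESeq2 but not in edgeR. *F3*, tissue factor, stood at 4.16, 2.92 and 3.92 CPM in ControlΔEC and at 15.6, 9.75 and 13.2 CPM in Wt1KOΔEC (log2 fold change 1.81, SE 0.37, adjusted p 0.117 in edgeR and 0.00131 in DESeq2). *Igfbp3*, an IGF-binding protein, stood at 1277, 1274 and 724 CPM against 2264, 2208 and 2137 CPM (log2 fold change 1.01, SE 0.21, edgeR adjusted p = 0.134). *Ccdc80*, a secreted matrix protein, had a log2 fold change of 1.19 (SE 0.22, edgeR adjusted p = 0.110), and *Nuak2*, an AMPK-related kinase, of 1.40 (SE 0.38, edgeR adjusted p = 0.210). These 4, picked by their p, were among 5 of the 19 with every Wt1KOΔEC library higher, against 10.3% of all genes. Another 5 of the 19 had every Wt1KOΔEC library lower, against 8.97%. *Lats2* and *Arhgef17* (log2 fold change -0.72, SE 0.25, edgeR adjusted p = 0.280), were among the 3 lower ones. *Ankrd1*, a target much used as a reporter of YAP activity, stood at 8.54 ± 5.23 against 5.67 ± 1.07 CPM, and *Amotl2* at 271 ± 56.2 against 327 ± 9.56 CPM (SD, n = 3). *Ankrd1*, like *Ccn1*, *Ccn2* and *Ccn3*, was lowest among the ControlΔEC libraries in replicate 2.

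Receptors of the CCN proteins gave 1 of 13 tested genes at an unadjusted p under 0.05, where all genes gave 13.1%, with a median log2 fold change of -0.24. That gene, *Itgam*, is an integrin of macrophages and was named after its values were seen. It had 172, 254 and 141 counts in ControlΔEC and 4, 0 and 24 counts in Wt1KOΔEC, and its adjusted p was 0.297 in edgeR and 0.0419 in DESeq2. The serum response factor genes, MRTF cofactors and their contractile targets, which share stimuli with YAP and TAZ, gave 1 of 16 against the same 13.1%, *Flna*, at 725 ± 83.5 against 555 ± 69.1 CPM with overlapping libraries. Over the 5 pathway lists, 0 of 87 tested genes were DEGs in edgeR.

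**Figure D4:**
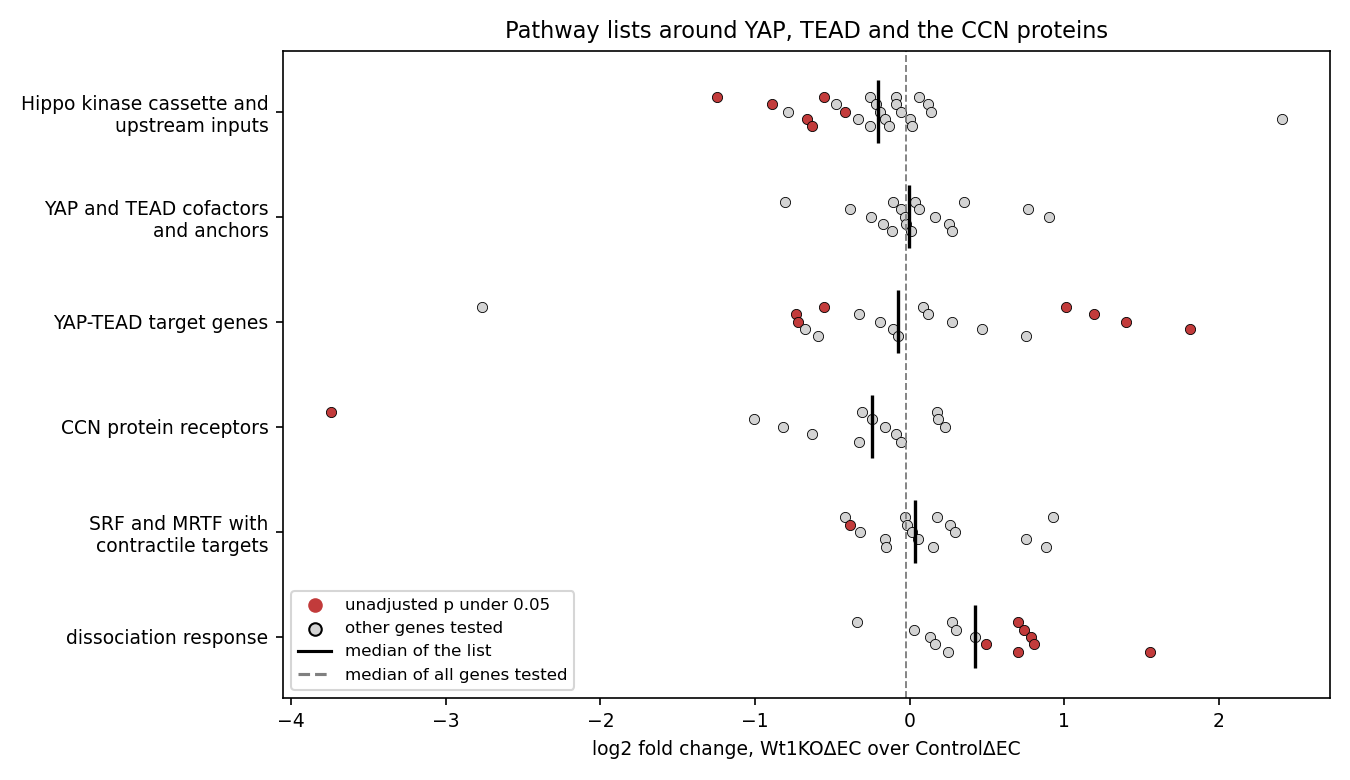
Log2 fold change of Wt1KOΔEC over ControlΔEC for each tested gene of the 5 pathway lists and of the dissociation response, in red where the unadjusted p was under 0.05, with a black line at each list's median and a dashed line at the median of all genes. The Hippo kinase list has 6 red points, all left of 0, the target list has red points on both sides, and the dissociation list has 7, all right of 0.

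Lists of other cell types and states were read in the same fit, at an unadjusted p under 0.05, where 5.96% of all genes were higher and 7.12% lower. Of 15 immediate-early and heat-shock genes that tissue dissociation induces, 7 were higher and 0 lower, with a median log2 fold change of 0.42. Their summed level was 2831 to 3533 CPM in ControlΔEC and 3935 to 5024 CPM in Wt1KOΔEC. In 8 of the 15 every Wt1KOΔEC library was higher, against 10.3% of all genes. *Hspa1a* (437 ± 78.5 against 764 ± 289.9 CPM, SD, n = 3) was among these 8. In 1 of the 15, *Nr4a1* (401 ± 79.3 against 316 ± 7.87 CPM), every Wt1KOΔEC library was lower, against 8.97% of all genes. *Ccn1* and *Ccn2* are immediate-early genes too. Fibroblast markers, none of them at 0 in all libraries of a genotype, summed to 725 to 1065 CPM in ControlΔEC and 1457 to 1643 CPM in Wt1KOΔEC. Of these, 5 of 10 were higher, among them the DEG *Col1a1*, a collagen gene (log2 fold change 1.34, edgeR adjusted p = 0.0441). *Col1a1* (114 ± 12.5 against 290 ± 40.0 CPM) and *Col3a1* (319 ± 65.1 against 624 ± 53.0 CPM) made a large part of that rise. The paper lists both as venous markers. *Postn* (242 ± 78.5 against 217 ± 34.7 CPM) overlapped. In 6 of the 10 every Wt1KOΔEC library was higher, and in 1, *Dpt* (2.87 ± 1.47 against 0.946 ± 0.449 CPM), every one was lower. Endocardial markers summed to 563 to 660 CPM and 952 to 1229 CPM, with 6 of 10 higher, among them the DEG *Plvap* (log2 fold change 2.31, edgeR adjusted p = 0.00319). *Plvap* alone stood at 68.1 ± 12.9 against 338 ± 20.5 CPM and made a large part of that rise. Epicardial markers summed to 18.6 to 22.4 CPM and 26.7 to 69.3 CPM, with 2 of 10 higher. Macrophage markers summed to 330 to 988 CPM and 266 to 366 CPM, with 5 of 10 lower, and mural cell markers to 715 to 940 CPM and 610 to 770 CPM, with 2 of 9 tested lower. Erythroid markers summed to 6579 to 14382 CPM and 5145 to 8551 CPM, with 2 of 10 higher and 2 lower, and cardiomyocyte markers to 137 to 194 CPM and 121 to 254 CPM, with 1 of 9 tested higher and *Nkx2-5* at 0 in all ControlΔEC libraries. ControlΔEC replicate 2, the lowest of its genotype for *Ccn1*, *Ccn2* and *Ccn3*, had the highest macrophage and erythroid sums of the 6 libraries and the lowest endothelial, dissociation and fibroblast sums. The part of these lists in the differences of *Ccn2*, *Ccn3* and *Tead2* was not tested.

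The genes most like a given gene over the 6 libraries were taken by the root mean square difference of centred log2 CPM among 8471 genes with a mean of at least 10 CPM. For *Ccn2* they were *Prox1* (0.16), *Phlda1* (0.19) and *Nol10* (0.21), which, like *Ccn2*, had their lowest level in ControlΔEC replicate 2 and their highest in Wt1KOΔEC replicate 3. For *Ccn1* they were *Spty2d1*, *Slc35a5* and *Dnajb6*, all at 0.07, and for *Yap1* they were *Nsdhl* (0.08), *Zfp148* (0.10) and *Zfp407* (0.10). The nearest gene to *Ccn2* was farther from it than the nearest genes were from *Ccn1* and *Yap1*, and *Ccn2* itself varied more over the libraries, with a root mean square of 0.76 against 0.35 and 0.23 on the log2 scale.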

How the data were processed

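RNA-Seq libraries of mGFP+ coronary ECs, 3 per genotype, were analysed. RNA was reverse transcribed from oligo-dT (SMART-seq2, no molecular identifiers), tagmented with Nextera XT and sequenced in pairs without strand information, so that reads of overlapping genes on opposite strands are not told apart. The authors aligned reads with STAR 2.7.8a and quantified genes of GENCODE M27 with RSEM 1.3.0, and deposited the expected counts of each gene from RSEM as whole numbers, without normalization. The methods name GRCm39, while the submitters' processing notes list GRCm38. Gene positions and exonic lengths were taken from GENCODE M39 on GRCm39, in which all 10 genes were matched, and promoters from RefSeq on GRCm38.p6. Protein sequences were not used here.

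Genotypes and replicate numbers came from the sample labels, and columns were matched by the identifier in each sample's description. The main test was edgeR 4.0.16 under R 4.3.3 (TMM, glmQLFit and glmQLFTest, two-sided, adjusted over all 16296 genes tested). The SE is the log2 fold change divided by the square root of F, and intervals cover 95%. DESeq2 1.42.0, limma-voom (limma 3.58.1), other normalizations and count filters, an offset for exonic length and GC content, the replicate number as a block, and leaving out each library were alternatives. The fits were tested on simulated counts with 200 genes changed by an absolute log2 fold change of 2. There, edgeR recovered 168 of them with 9 false calls. DESeq2 recovered 177 with 60 false calls, and limma-voom 158 with 3. Only genes above a low level were changed, and the simulated spread depended on the level alone, without outlying libraries. The simulation therefore cannot say how often smaller differences are found, nor which calls in the real libraries are false. Limits from counts of 0 are 3 counts and cover counting error only. The labels call the libraries biological replicates but do not say how many litters they came from. The paper's methods describe a cross that gave both genotypes within a litter, without saying which libraries shared one. The p-values weigh the genotype difference against the spread between these libraries, which edgeR moderates over all genes.

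The 10 genes and all gene lists were chosen with earlier results of these data known. All 10 genes were named. From each pathway list, genes with an unadjusted p under 0.05 and a mean of at least 5 CPM were named, up to 6 by p, and from each marker list up to 3 by level. *Stk3*, *Stk4*, *Lats1*, *Mob1a*, *Sav1*, *Ankrd1*, *Amotl2*, *Itgam*, *Plvap*, *Nr4a1*, *Dpt* and *Nkx2-5* were added after their values were seen. *Lats2*, *Amotl2* and *Ptpn14* stand on more than one list.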

Additional observations from a re-analysis of the deposited data

How the results depend on the processing

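The 12 DEGs among all genes became 599 with DESeq2, 759 with DESeq2 without the count filter (added after the data were seen), 296 with no filter, 113 with at least 10 counts in every library, 1652 with an unadjusted p and the fold limit, and 2 to 37 when 1 library was left out, with 2 without Wt1KOΔEC replicate 3 and 37 without ControlΔEC replicate 3. With library size only, 11 DEGs split into 5 higher and 6 lower, against 8 and 4 with TMM, and the median of all genes moved by -0.15. Of the 10 YAP-TEAD and CCN genes, 0 in edgeR, DESeq2, no filter and the unadjusted p called 2 each (*Ccn2* and *Ccn3*), DESeq2 without the filter called 1 (*Ccn3*), and leaving out 1 library called 0 to 1, *Ccn3* without ControlΔEC replicate 2. Of the pathway list genes, 87 of them tested in the main fit, 0 were called in edgeR. DESeq2 called 7 with the filter, beside 3.85% of all genes given an adjusted p, and 7 without it. The calls were 4 with no filter, 2 with at least 10 counts in every library and 0 when any library was left out. The unadjusted p with the fold limit called 11, beside 1652 of all 16296 genes tested. The cause was not tested.

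Over 19 alternatives each, *Tead2* stayed between 0.41 and 0.71, *Tead4* between -0.63 and -0.38, *Yap1* between -0.37 and -0.04, *Ccn1* between 0.0007 and 0.50, *Ccn2* between 0.72 and 1.50 and *Ccn3* between -2.77 and -1.89 on the log2 scale, with adjusted p of 0.0399 to 0.575 for *Ccn2*, 0.00293 to 0.501 for *Ccn3* and 0.0668 to 0.555 for *Tead2*. *Wwtr1* turned to -0.044 with library size only. *Tead1* turned to 0.0027 with upper-quartile normalization and to 0.068 with the length and GC offset, and ranged from -0.49 to 0.20 when 1 library was left out, with the lowest value without Wt1KOΔEC replicate 3. *Ccn5*, with counts in 2 libraries, turned to 0.24 in limma-voom and ranged from -0.88 to 0.30 without 1 library. *Tead3* and *Ccn5* have few counts, the latter only in the libraries with the lowest totals, and no value under the filter on every library. The order of mean levels per kb was the same after rescaling to a common total, which cannot change the order within a library. No other measure of gene length was tried.

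The deviations of same-numbered libraries from their genotype means correlated at 0.0566, 0.00448 and 0.0201, and not every library correlated best with its own number. With 3 libraries per genotype, these correlations cannot decide whether the replicate numbers pair the libraries. With the replicate block there were 5 DEGs, and 5 with the length and GC offset as well, and of the YAP-TEAD and CCN genes 0 were called.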
